A study of Mus musculus with 3 samples.

Results

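The T-box genes encode transcription factors that share a DNA-binding domain named after T (Brachyury). Chromatin occupancy of Isl1, a LIM-homeodomain factor of cardiac progenitors, was examined at 10 of them that act in mesoderm and heart, namely Tbx1, Tbx2, Tbx3, Tbx4, Tbx5, Tbx6, Tbx18, Tbx20, Eomes and T. The genes were chosen by name, and a peak was counted for one of them when the deposited peak list gave that gene's symbol as the closest one. Of 14082 distinct peaks assigned to 9313 gene names, 13 were assigned to these genes.

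The peaks came from ChIP-Seq, in which crosslinked chromatin is pulled down with an antibody and sequenced. Chromatin was taken at day 5 of directed cardiac differentiation from cardiac progenitor cells (CPCs) made with BMP4, Activin A, VEGF, bFGF and FGF10 from 1 mouse embryonic stem cell line, E14 Tg(Nkx2-5-EmGFP), which carries a green fluorescent reporter for Nkx2-5. Pulldown with an antibody to Isl1 was done in 2 replicates, and 1 input sample held chromatin set aside before it. All 3 samples shared line, day and treatment, so no genotype or treatment was compared. The replicates had been combined into 1 list without scores or read numbers. Depth was therefore unknown, no error between replicates could be attached to any value, and the levels of the T-box genes or of markers of the progenitors were not measured in these data.

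T-box factors act one after another as mesoderm becomes heart. Eomes and T are switched on in the primitive streak, where Eomes works upstream of Mesp1 in the earliest cardiac mesoderm, and Tbx6 marks presomitic mesoderm. Tbx1 keeps progenitors of the second heart field and pharynx proliferating, Tbx5 and Tbx20 drive the chamber myocardial programme, and Tbx2 and Tbx3 repress that programme in the atrioventricular canal and conduction system. Tbx18 marks the sinus venosus and the forming epicardium, and Tbx4 acts mainly in hindlimb, allantois and lung.

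Isl1 peaks were assigned to 5 of the 10 genes, Tbx18 with 5 peaks, Tbx1 with 3, Tbx2 and Tbx3 with 2 each, and Eomes with 1. The other 5, which are Tbx4, Tbx5, Tbx6, Tbx20 and T, had none. All 5 genes with a peak had one within 1 kb of the transcription start site (TSS) by the deposited distance. Among all 21896 protein-coding genes, 37.5% had at least 1 assigned peak (95% Wilson interval 36.9% to 38.2%), and 23.2% had one within 1 kb (22.7% to 23.8%). At least 2 peaks were assigned to 4 of the 10 genes, against 10.6% of protein-coding genes (10.2% to 11.0%). With 10 genes, 1 gene more or fewer moves a count by 10 percentage points, and no test was run on a list of genes chosen by name with earlier results known.

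The peaks were of 2 kinds when judged by how often their sequence occurs in the genome. A peak was called single-copy when the median number of genome positions holding a 31-base word of its central 200 bp was under 2, and multi-copy otherwise. There were 9 single-copy peaks, and all of them lay within 10 kb of the TSS of their gene. The 4 multi-copy peaks were all assigned to Tbx18, and each lay more than 10 kb away. In the list as a whole, 46.5% of the peaks were multi-copy, and 82.0% of the single-copy peaks lay within 10 kb of the TSS. The multi-copy share was 2.62% for peaks within 1 kb, 10.3% within 10 kb and 81.2% farther out. Single-copy peaks were assigned to 5 of the 10 genes and to 27.6% of protein-coding genes (27.0% to 28.2%).

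**Figure D1:**
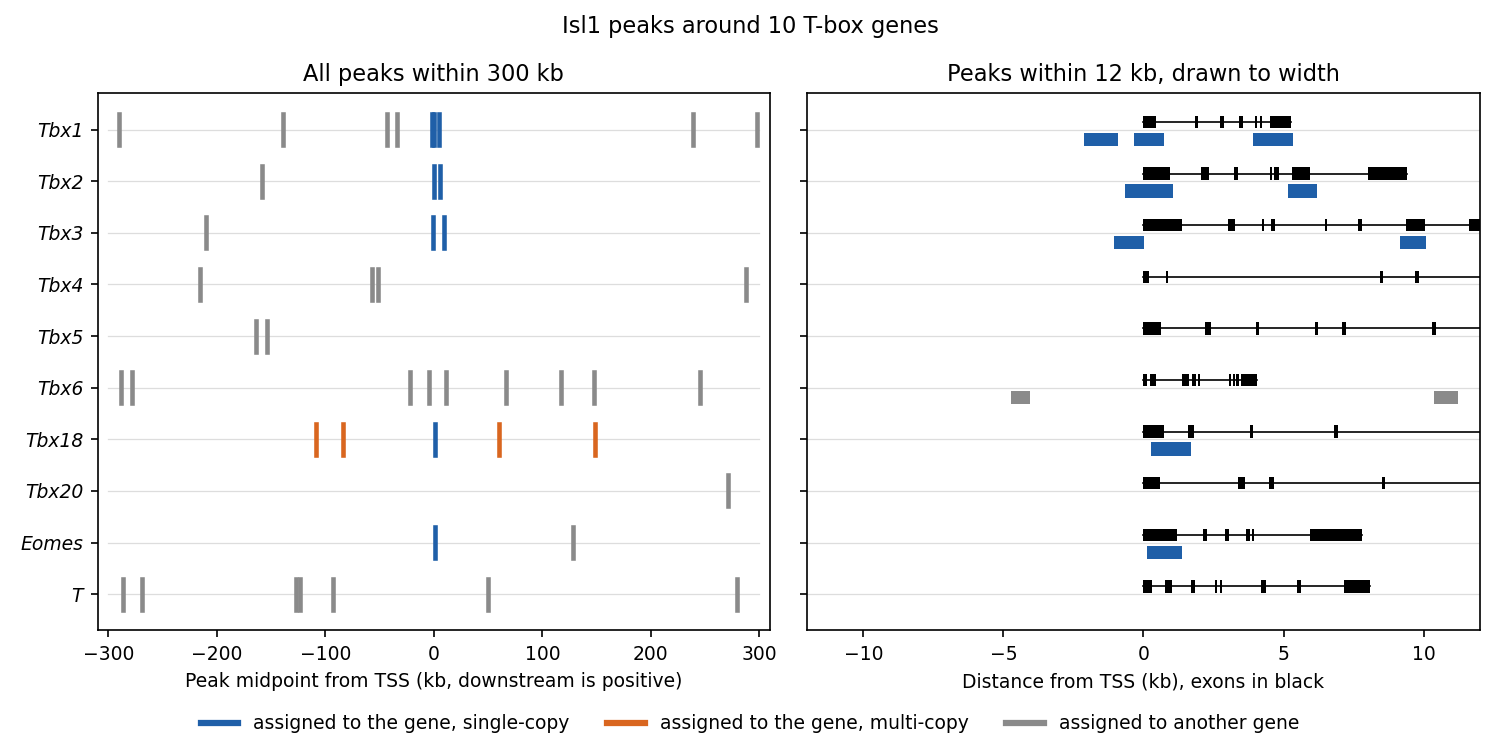
Isl1 peaks around the TSS of each of the 10 genes, drawn in the direction of transcription. The left panel marks the midpoint of every peak within 300 kb on the x axis in kb, and the right panel draws peaks within 12 kb to their width below the exons (black) of the main transcript, with peaks assigned to the gene in blue (single-copy) or orange (multi-copy) and peaks assigned to another gene in grey. A blue peak sits beside the TSS of Tbx1, Tbx2, Tbx3, Tbx18 and Eomes, and of the assigned peaks only those of Tbx18 include orange ones. Grey peaks are not split by copy number, and those around T, Tbx2 and Tbx4 include multi-copy ones. No peak lies in the right panel for Tbx4, Tbx5, Tbx20 or T.

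The sequences of single-copy peaks are shown for their CpG content. Below, 160 bases from each of 8 peaks are written on the strand of the gene, from the mm9 assembly, with CG dinucleotides in capitals. Most were taken at the peak midpoint, and the Tbx2 start and Tbx3 exon 7 windows were shifted to a stretch free of untranslated sequence. The Tbx2 start window is intergenic and ends just before the first exon, with none of its bases inside that exon.
Tbx1 first exon, chr16:18586792-18586951, minus strand: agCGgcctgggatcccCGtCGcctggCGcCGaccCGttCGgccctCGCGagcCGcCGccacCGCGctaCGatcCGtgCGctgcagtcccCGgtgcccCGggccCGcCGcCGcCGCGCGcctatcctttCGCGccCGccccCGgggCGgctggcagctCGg
Tbx1 last exon, chr16:18582360-18582519, minus strand: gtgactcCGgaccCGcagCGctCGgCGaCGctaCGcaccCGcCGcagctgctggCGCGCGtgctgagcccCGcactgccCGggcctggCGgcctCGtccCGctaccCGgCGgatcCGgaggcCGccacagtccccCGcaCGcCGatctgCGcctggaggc
Tbx1 upstream, chr16:18588499-18588658, minus strand: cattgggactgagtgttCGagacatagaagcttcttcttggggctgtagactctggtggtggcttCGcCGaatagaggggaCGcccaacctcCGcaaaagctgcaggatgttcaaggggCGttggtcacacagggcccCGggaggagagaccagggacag
Tbx2 upstream edge of the first exon, chr11:85645893-85646052, plus strand: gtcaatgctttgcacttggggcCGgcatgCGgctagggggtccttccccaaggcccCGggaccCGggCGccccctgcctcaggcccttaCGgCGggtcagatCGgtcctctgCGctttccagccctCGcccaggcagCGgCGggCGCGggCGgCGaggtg
Tbx2 exon 6, chr11:85651660-85651819, plus strand: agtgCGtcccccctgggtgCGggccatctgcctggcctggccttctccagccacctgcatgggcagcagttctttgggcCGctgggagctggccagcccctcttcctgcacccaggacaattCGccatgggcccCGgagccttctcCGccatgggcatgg
Tbx3 upstream, chr5:120120428-120120587, plus strand: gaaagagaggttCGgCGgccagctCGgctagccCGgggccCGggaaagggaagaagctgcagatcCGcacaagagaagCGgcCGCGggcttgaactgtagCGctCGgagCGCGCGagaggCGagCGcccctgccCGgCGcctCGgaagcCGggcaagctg
Tbx3 exon 7, chr5:120130886-120131045, plus strand: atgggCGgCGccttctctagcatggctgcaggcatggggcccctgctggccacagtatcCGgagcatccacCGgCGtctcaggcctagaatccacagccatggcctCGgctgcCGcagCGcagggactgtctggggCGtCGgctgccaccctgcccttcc
Tbx18 first intron, chr9:87625035-87625194, minus strand: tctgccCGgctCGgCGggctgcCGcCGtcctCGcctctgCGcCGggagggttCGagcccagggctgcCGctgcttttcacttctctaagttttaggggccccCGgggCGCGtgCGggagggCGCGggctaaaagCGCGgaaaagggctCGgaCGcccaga
The first exon of Tbx1 held 30 CG dinucleotides in its 160 bases and the last exon of Tbx1 held 25. The first intron of Tbx18 and the region upstream of Tbx3 held 20 each, the Tbx2 start 16, and exon 7 of Tbx3 10. The fewest were in exon 6 of Tbx2 with 6 and in the upstream Tbx1 stretch with 7. Both stretches were still GC-rich, at 68.8% and 58.8%.

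Tbx1 carried 3 peaks in and next to a gene of 7 exons on the minus strand of chromosome 16. The peak closest to the TSS, at chr16:18586337-18587406, had its midpoint 191 bp downstream of the TSS in the coding part of exon 1. It was 1069 bp wide, covered 404 coding bases, had a GC content of 71.2%, and held CpG at 1.01 times the number expected from its C and G content. The gene-body peak at chr16:18581738-18583140 was 1402 bp wide, lay 4623 bp downstream in the coding part of exon 7, the last exon, and covered 630 coding bases at a GC content of 69.4% and a CpG ratio of 1.00. These were the highest CpG ratios among the 13 peaks. The upstream peak at chr16:18587961-18589195 had its midpoint at -1516 bp in intergenic sequence, 465 bp before another annotated start of Tbx1. It reached past that start and covered 34 coding bases. The GC content of this upstream peak, 67.6%, was close to the others, but its CpG ratio of 0.634 was the lowest of the 9 single-copy peaks. The midpoints of the upstream and first-exon peaks were 1707 bp apart.

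Tbx2 and Tbx3, a closely related pair of repressors, each carried 1 peak at the TSS and 1 over a late coding exon. The Tbx2 promoter peak at chr11:85645395-85647117 had a deposited distance of 139 bp and a width of 1722 bp, more than 93.1% of all peaks. Its midpoint lay in the untranslated part of exon 1, and it covered 395 coding bases at a GC content of 70.6%. The other Tbx2 peak, at chr11:85651225-85652253, lay 5622 bp downstream in exon 6 of 7, was 1028 bp wide and covered 638 coding bases. At Tbx3, the peak at chr5:120119960-120121055 lay 364 bp upstream of the TSS, was 1095 bp wide, and had its midpoint in an intron of the neighbouring gene model Gm2301. The Tbx3 gene-body peak at chr5:120130187-120131097 lay 9400 bp downstream in exon 7 of 8, was 910 bp wide and covered 671 coding bases. The annotation places the start of a short Tbx3 transcript 118 bp from the midpoint of this peak, so it was distal to the main start only.

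Gene-body peaks over one of the last 2 exons were thus found at Tbx1, Tbx2 and Tbx3. Of the other T-box genes, Tbr1, a factor of forebrain neurons, also had one, at chr2:61649442-61650593 in exon 6 of 6 with 853 coding bases. How often other genes carry such a peak was not measured.

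Eomes and Tbx18 each had 1 single-copy peak, on the gene side of the TSS. The Eomes peak at chr9:118387574-118388828 was 1254 bp wide and lay 894 bp downstream, or 222 bp from the closest annotated start. It covered 887 coding bases of exon 1, and its central 200 bp were 77.5% GC with 29 CpG. The Tbx18 peak at chr9:87624403-87625826 was 1423 bp wide, lay 981 bp downstream in the first intron, and covered 407 coding bases at a GC content of 71.0% and a CpG ratio of 0.856. Both distances were just under the 1 kb used for counting TSS peaks.

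The 4 remaining Tbx18 peaks were of the other kind. They lay at chr9:87477293-87478033, 148432 bp downstream of the TSS, at chr9:87565480-87566831, 59940 bp downstream, at chr9:87709811-87710868, 84244 bp upstream, and at chr9:87733179-87735617, 108303 bp upstream, all in intergenic sequence. The median 31-base word of their central 200 bp occurred between 740.5 and 2201 times in the genome, and between 11.6% and 23.2% of the 31-base words of the whole peak occurred once. The peak 108303 bp upstream was 2438 bp wide, more than 98.9% of all peaks. Tbx18 was the closest protein-coding gene to these peaks within a stretch of 536 kb, against a median of 48.1 kb for all genes. How reads that fit several places were assigned affects such peaks, and which copy was occupied cannot be told from the list.

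A run of 49 bases was identical in 3 of the 4 Tbx18 peaks and recurred in peaks assigned to Tbx15, a factor of skin and skeletal mesoderm, and to Tbr1. It is shown in capitals with 40 bases to either side from mm9, in which the flanks of the peaks 59940 and 148432 bp downstream run past the listed peak border.
Tbx18, 59940 bp downstream, chr9:87566743-87566871, plus strand: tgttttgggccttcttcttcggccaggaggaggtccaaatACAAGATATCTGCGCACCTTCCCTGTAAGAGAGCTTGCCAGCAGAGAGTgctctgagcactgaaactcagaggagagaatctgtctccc
Tbx18, 84244 bp upstream, chr9:87710543-87710671, plus strand: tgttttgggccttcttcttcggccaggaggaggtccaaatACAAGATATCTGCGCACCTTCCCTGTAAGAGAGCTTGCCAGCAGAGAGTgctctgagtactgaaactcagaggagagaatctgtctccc
Tbx18, 148432 bp downstream, chr9:87477267-87477395, minus strand: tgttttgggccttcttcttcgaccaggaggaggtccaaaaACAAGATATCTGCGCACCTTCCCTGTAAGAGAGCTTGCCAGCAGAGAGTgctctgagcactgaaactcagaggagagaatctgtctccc
Tbx15, 110733 bp downstream, chr3:99168001-99168129, minus strand: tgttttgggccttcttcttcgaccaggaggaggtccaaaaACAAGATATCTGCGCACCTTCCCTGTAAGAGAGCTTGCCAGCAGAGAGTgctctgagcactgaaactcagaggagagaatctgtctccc
The run occurred 2953 times in the genome, and 1481 of these copies (50.2%) lay inside an Isl1 peak. It was found in 1480 peaks, or 10.5% of the list, of which 1413 were beyond 10 kb and made up 19.6% of all peaks there. The stretch closest to Tbx18 held 4 copies, of which 3 were in peaks, and the stretches of the other 9 genes held 0.

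Between member peaks, shared sequence was otherwise short. The longest run common to 2 single-copy peaks ranged from 10 to 23 bases over 36 pairs, with a median of 12. Pairs of a single-copy and a multi-copy peak shared 9 to 12 bases. The 6 pairs of multi-copy Tbx18 peaks shared 13 to 219 bases, with a median of 36.5, and the 219 bases were common to the peaks 59940 bp downstream and 84244 bp upstream.

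The 2 kinds of peak at the T-box genes differed in base composition. GC content over the peak ranged from 62.6% to 71.2% in the 9 single-copy peaks (median 68.9%) and from 53.6% to 59.1% in the 4 multi-copy peaks (median 56.9%), and the 2 ranges did not overlap. In the whole list the medians were 66.7% for single-copy and 55.5% for multi-copy peaks, but the ranges overlapped, from 34.6% to 78.0% and from 30.9% to 74.9%. The CpG ratio had a median of 0.827 in the single-copy peaks of the T-box genes, against 0.786 in all single-copy peaks, and of 0.518 in the multi-copy ones, against 0.473. The median width of the 13 peaks was 1234 bp, against 947 bp for all peaks, and 5 of the 13 belong to Tbx18 alone. Over peaks within 1 kb of a TSS the median width was 1254 bp for the 5 T-box peaks and 1050 bp for all peaks.

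**Figure D2:**
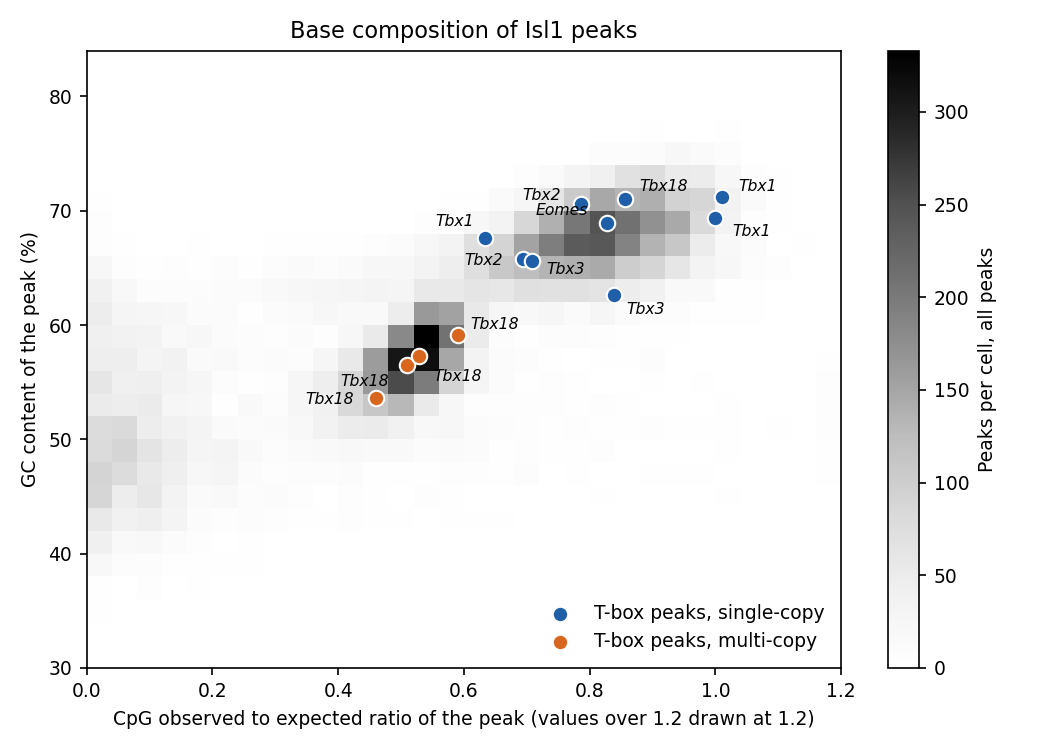
GC content of each peak in percent (y axis) against its CpG observed to expected ratio (x axis). Grey shading counts all 14082 peaks per cell, and circles are the 13 peaks of the T-box genes, single-copy in blue and multi-copy in orange. Most circles lie in or beside the 2 dense areas of the list, and the 2 Tbx1 peaks with CpG ratios of 1.00 and 1.01 lie at the sparser high end.

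Both kinds stood out from the sequence around them in GC content. The central 400 bp of the Eomes peak were 77.5% GC, against 47.2% in the flanks 2 to 3 kb away. The Tbx18 peak 59940 bp downstream reached 66.2% against 36.9%, and the 4 multi-copy peaks had differences of 23.2 to 29.4 percentage points. The smallest differences were at the upstream Tbx1 peak (60.0% against 57.1%) and the Tbx2 promoter peak (63.5% against 56.0%).

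CpG content was then followed along each gene and 2 kb to either side, in windows of 1 kb moved by 50 bp. The densest window of each of the 5 genes with a peak held more CpG than that of any gene without one. Tbx1 reached 138 CpG per kb, Tbx18 124, Tbx2 114, Eomes 113 and Tbx3 88. In each of these genes the densest window overlapped a peak, and windows clear of peaks reached at most 26 CpG per kb at Tbx1, 35 at Tbx18, 55 at Tbx2, 56 at Eomes and 60 at Tbx3. The genes without a peak reached 77 at T, 65 at Tbx20, 62 at Tbx4, 46 at Tbx5 and 36 at Tbx6.

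Within single genes, the peaks lay over local CpG maxima. At Tbx1 the 3 peaks reached 133 CpG per kb in exon 1, 138 in the last exon and 78 upstream. The Tbx2 gene-body peak reached 77 and the Tbx3 gene-body peak 71. The promoter of T, with 77 CpG per kb and no peak, was therefore as CpG-dense as the Tbx2 gene-body peak and denser than the Tbx3 one.

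**Figure D3:**
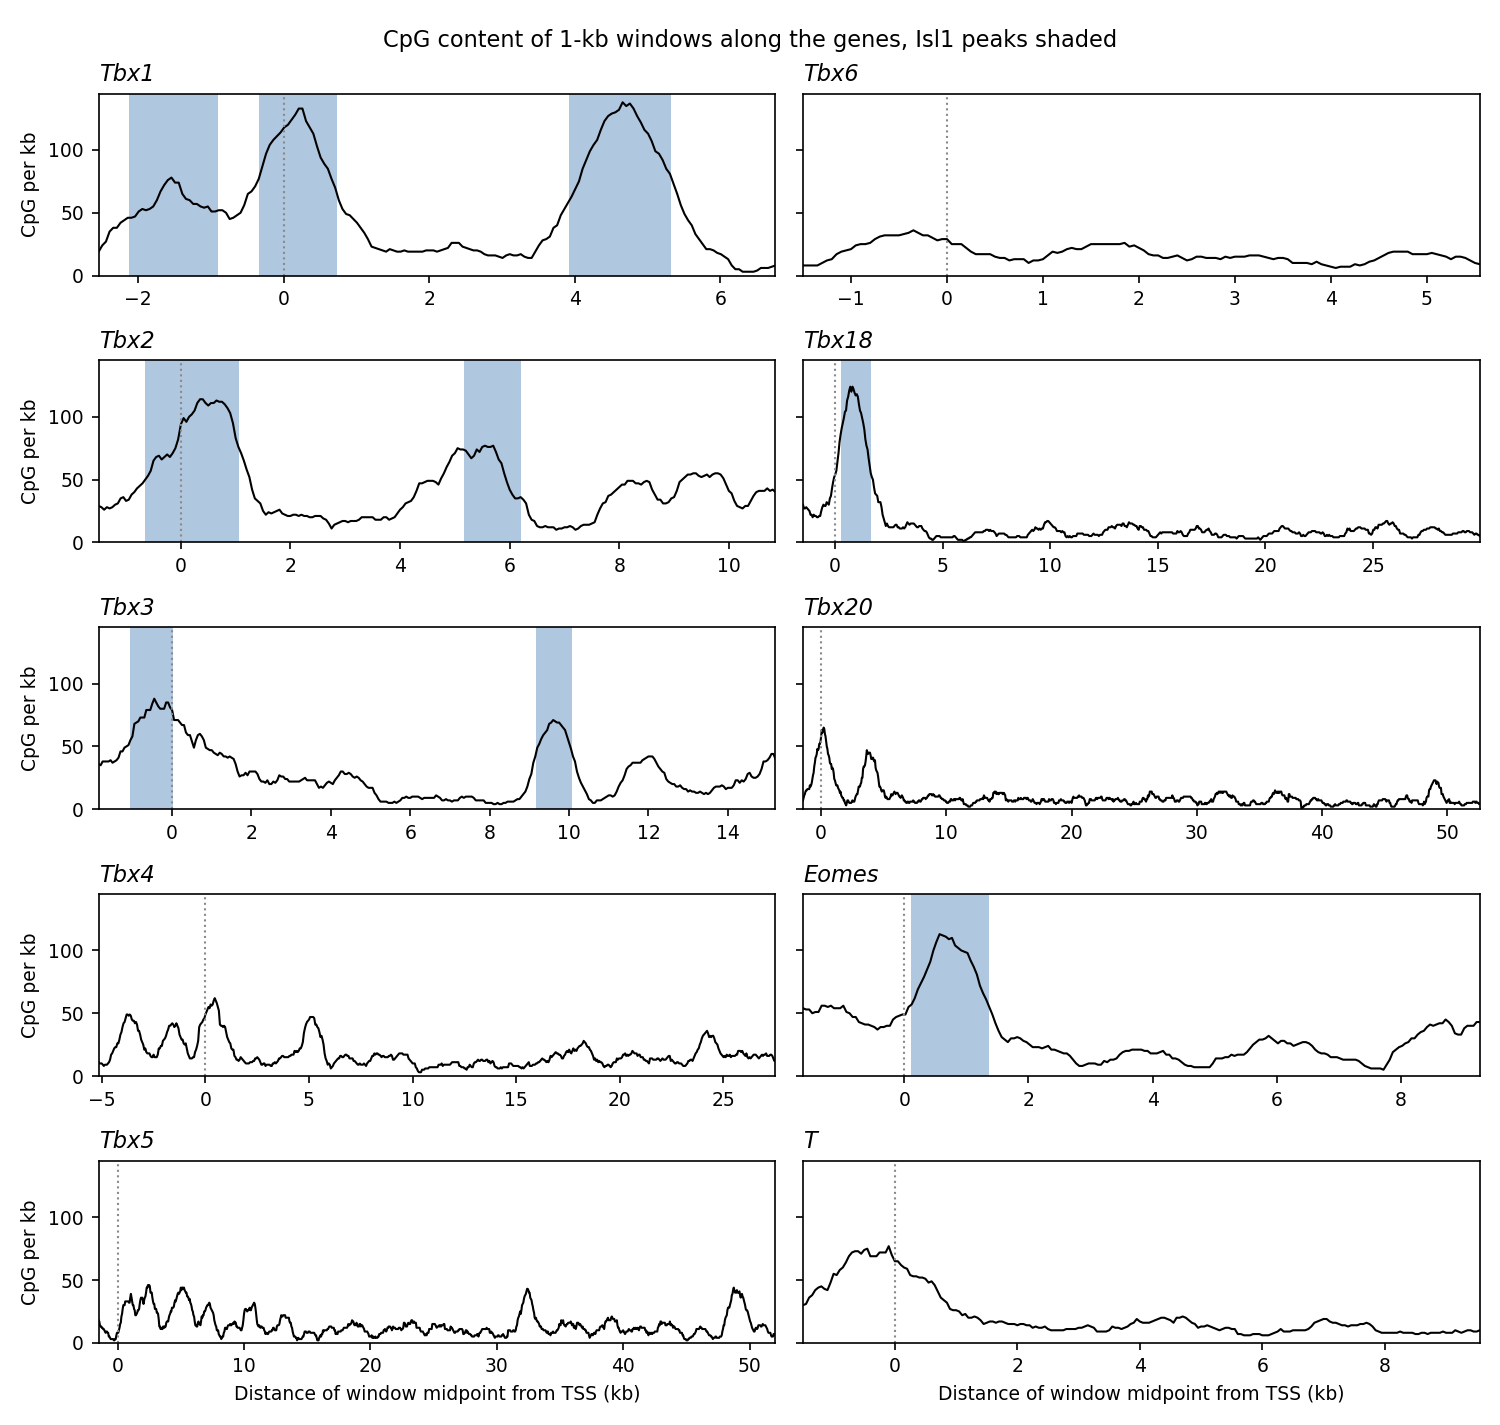
CpG dinucleotides per 1-kb window (y axis) along each of the 10 genes with 2 kb to either side, by distance of the window midpoint from the TSS in kb (x axis, a different scale for each gene). Blue shading marks Isl1 peaks and the dotted line the TSS. Each shaded peak covers a local CpG maximum, and the tracks of Tbx4, Tbx5, Tbx6, Tbx20 and T stay at or under 77.

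The same measure was taken for all 22219 protein-coding genes of the annotation, whose densest 1 kb had a median of 56.0 CpG. The share of genes overlapped by a peak, counted over the gene and 2 kb to either side, rose with it from 1.47% of genes under 20 CpG per kb to 98.8% of genes at 160 or more. Tbx1 and Tbx18 fell in the class from 120 to 140 CpG per kb, in which 93.6% of 1004 genes had a peak (91.9% to 95.0%), and Tbx2 and Eomes in the class from 100 to 120, with 84.4% of 1924 genes (82.7% to 85.9%). Tbx3 was in the class from 80 to 100, with 62.1% (60.3% to 63.8%). Tbx4, Tbx20 and T shared the class from 60 to 80 with 39.9% (38.4% to 41.4%), Tbx5 fell in the class from 40 to 60 with 19.5% (18.2% to 20.8%) and Tbx6 in that from 20 to 40 with 7.73% (6.97% to 8.57%). The presence of a peak thus went with the more frequent outcome of the class at each of the 10 genes. The other T-box genes did not all follow this order. Tbx21, the T-bet factor of T helper cells, reached 99 CpG per kb without a peak over the gene, and Tbx15 had one at 74. Whether CpG content affected pulldown, sequencing or peak calling was not tested.

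**Figure D4:**
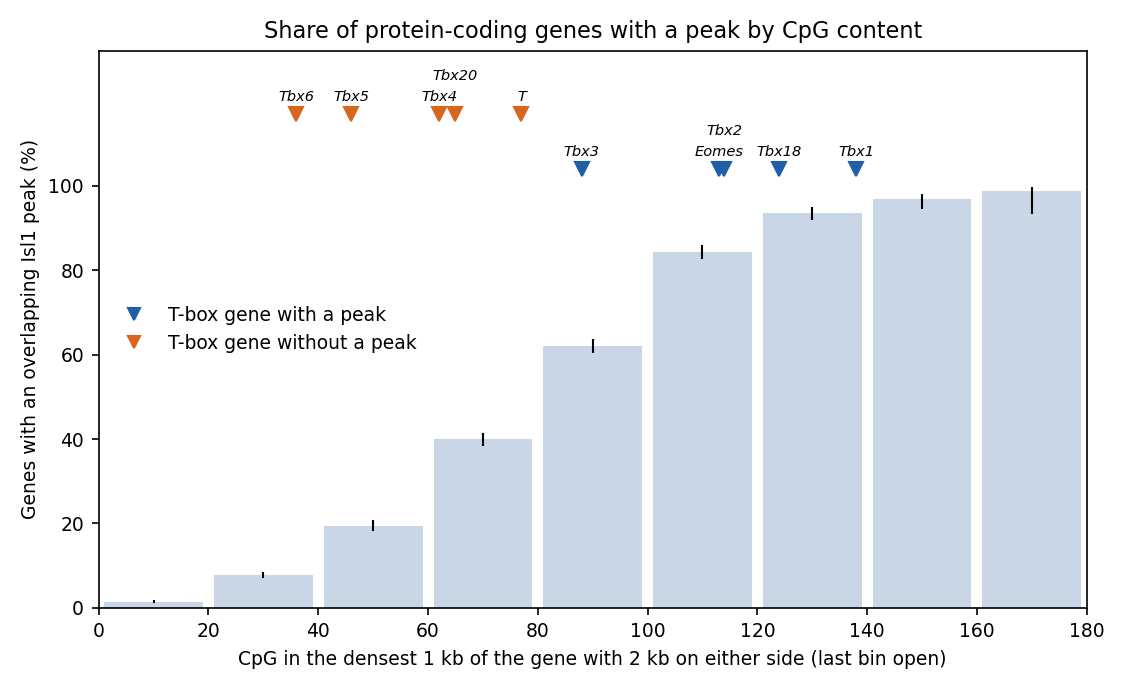
Share of protein-coding genes overlapped by an Isl1 peak (bars, percent, with 95% Wilson intervals) by the CpG count of the densest 1 kb of the gene with 2 kb to either side (x axis). Triangles above the bars mark the 10 T-box genes by their CpG count only, in blue with a peak (88 to 138) and in orange without (36 to 77).

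At the promoters alone the order was less clear. The CpG ratio of the 1 kb centred on the TSS was 0.635 to 1.03 at the 5 genes with a peak and 0.122 to 0.638 at the 5 without, and the ranges met at Eomes (0.635) and T (0.638). The medians were 0.756 and 0.497, against 0.729 and 0.407 for all genes with and without a peak. The 200 bp centred on the TSS were single-copy by the same median at all 10 genes, those with a peak and those without. Copy number was not counted over the full 1 kb.

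The closest peak of any assignment was next sought for the 5 genes without one of their own. For Tbx6 it lay 4381 bp upstream and was assigned to Ypel3. Peaks assigned to Ppp4c, Mapk3 and Doc2a also lay within 100 kb in this gene-dense region, where the stretch closest to Tbx6 spanned 7.76 kb. For Tbx4 the closest peak was the Tbx2 gene-body peak, 48185 bp upstream. For T it was a peak assigned to Pde10a, 49756 bp downstream, with a median of 57 copies of its 31-base words, and a single-copy peak assigned to Prr18 lay 93159 bp upstream.

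Tbx5 and Tbx20, which act in the chamber myocardium, had no peak of any assignment within 100 kb in this list from CPCs. The study names both among the primary targets of Isl1, with binding taken from embryos or CPCs. Its embryo ChIP-Seq was not examined here. The peak closest to Tbx5 was the Tbx3 gene-body peak, 154030 bp upstream, and 13.1% of genes lay farther from any peak than Tbx5 did. For Tbx20 it was a peak assigned to Dpy19l1, 271198 bp away, and 5.20% of genes lay farther. Their closest-gene stretches of 223 and 197 kb compare with a median of 48.1 kb for all genes.

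**Figure D5:**
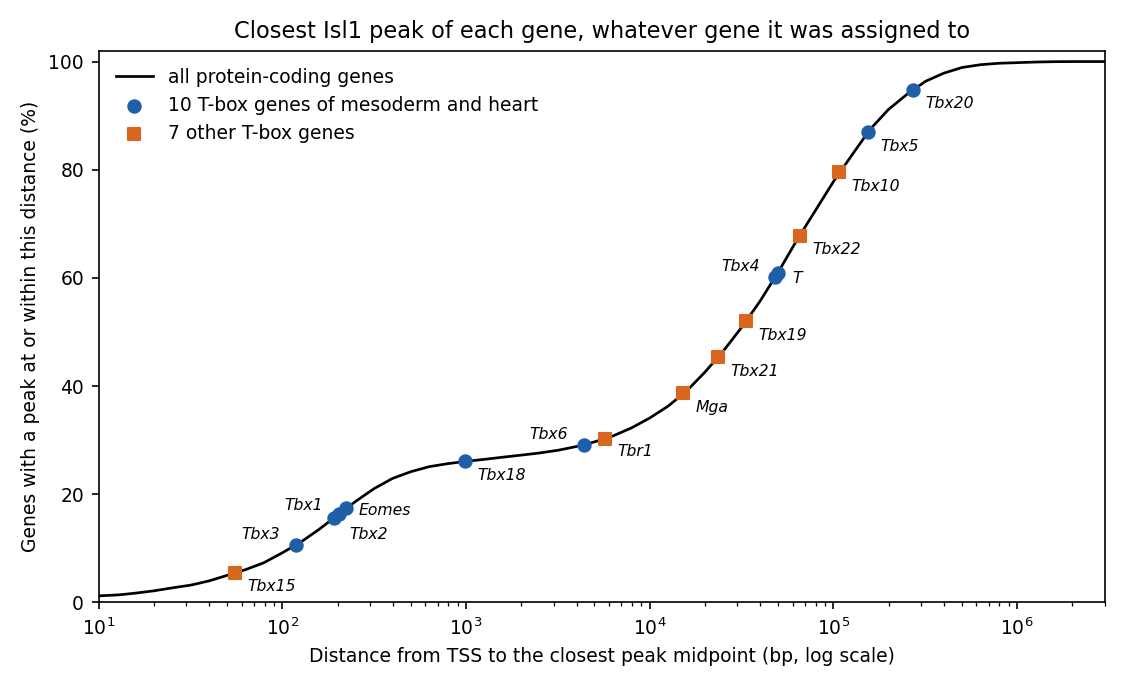
Distance from any annotated TSS of a gene to the closest peak midpoint in bp (x axis, log scale). The y axis gives the share of protein-coding genes with a peak at or within that distance in percent. The line is all protein-coding genes, circles are the 10 T-box genes and squares 7 other T-box genes. Tbx3, Tbx1, Tbx2, Eomes and Tbx18 lie within 1 kb, and Tbx5 and Tbx20 beyond 100 kb. The Tbx3 point is its gene-body peak, 118 bp from the start of a short transcript.

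Tbx2 with Tbx4 and Tbx3 with Tbx5 are neighbouring pairs that arose by duplication. In each pair the repressor carried both peaks and its neighbour none. The starts of Tbx2 and Tbx4 were 57.5 kb apart and those of Tbx3 and Tbx5 164 kb, and beyond 15 kb from the start of Tbx2 or Tbx3 there were 0 peaks between the partners. At Tbx1, by contrast, peaks of the platelet receptor gene Gp1bb and of Sept5 lay 33156 and 41768 bp upstream.

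Short sequence strings were looked for in the 200 bp around each midpoint, on either strand, as a description of the letters under the peaks. The LIM-homeodomain type strings CTAATTG and CTAATGG, the homeodomain type string TAATTA, the T-box type strings GGTGTGA and GGTGTTA, the GATA type strings AGATAA and TGATAA, and the Nkx2-5 type string CAAGTG were in 0 of the 13 peaks. Each of these 8 strings was in 0.192% to 2.68% of all peaks in the same window. The E-box string CAGCTG was in 2 peaks, at the last exon of Tbx1 and exon 7 of Tbx3, and in 8.87% of all peaks, and the E-box string CACGTG was in 0 and in 2.55%.

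Over the whole peak, the string CTAATTG (2.23% of all peaks), the string CTAATGG (2.85%), the string TAATTA (5.86%), the string GGTGTGA (6.90%) and the string AGATAA (17.4%) were still in 0 of the 13. GGTGTTA and TGATAA were in 1 peak, 59940 bp downstream of Tbx18, against 2.58% and 10.4% of all peaks. CAAGTG was in the Tbx2 promoter peak and the peak upstream of Tbx3, against 22.6% of all peaks. CAGCTG was in 7 of the 13 peaks, against 37.8%, and CACGTG in 3, against 18.3%. Among all single-copy peaks these 2 shares were 44.2% and 21.3%. The whole-peak counts were not matched for peak width. Palindromic strings such as CAGCTG and CACGTG were counted once per position.

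The 7 other T-box genes were counted in the same way. Peaks were assigned to 4 of them, against 37.5% of all protein-coding genes, 3 each to Tbr1 and Tbx15 and 1 each to Tbx21 and Mga, and to none of Tbx10, Tbx19 and Tbx22. Of these 8 peaks 3 were multi-copy, against 46.5% of all peaks. A peak within 1 kb of the TSS, which 23.2% of all protein-coding genes had, was found at 1 of the 7, Tbx15, with its midpoint 55 bp downstream. These counts are too small to set the 7 genes apart from the 10. The median width was 827.5 bp.

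Genes that work with the T-box factors or lie downstream of them were counted from a list of 36. At least 1 peak was assigned to 26, a single-copy one to 24, and one within 1 kb to 20, so that each of these counts made up a larger share than among all protein-coding genes. Among genes of the early mesoderm and streak, Mixl1 had a peak 56 bp from its TSS, Wnt3a 75 bp, Lhx1 197 bp, Gsc 337 bp, Mesp1 430 bp and Mesp2 469 bp downstream, and Wnt3 had one 178 bp upstream. Eomes acts upstream of Mesp1, and Mesp1 and Mesp2 are neighbouring genes of nascent and presomitic mesoderm. Dll1, the Notch ligand of presomitic mesoderm, had 2 peaks, the closer 296 bp upstream. No peak was assigned to Nodal, Cer1, Dll3, Ripply1, Ripply2 or Msgn1 of the same group.

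Among genes linked to Tbx1 in the second heart field, the growth factor gene Fgf8 had its closest peak 33 bp from the TSS, Foxc1 153 bp and Foxc2 913 bp, and Foxa2 had one 331 bp upstream. The only peak of Fgf10 was multi-copy and lay 300435 bp away. Of the cardiac factors with which Tbx5 and Tbx20 act, Nkx2-5 had a peak 346 bp, Gata5 337 bp, Hand2 936 bp and Gata4 4397 bp from the TSS, and Sall4 had one at 1164 bp. The only peak of Mef2c was multi-copy and lay 317029 bp away, and Gata6 and Hand1 had none. Tle1 and Tle3, corepressors that T-box factors can recruit, had peaks at 329 and 927 bp. The 10 genes of the list without a peak included Nppa and Gja5, chamber genes that Tbx5 activates and Tbx2 and Tbx3 repress. The Isl1 gene itself had 3 peaks, the closest 37260 bp from its TSS. The genes of this list without a peak within 10 kb are named with their values known. The genes of this list were not matched in CpG content to the T-box genes or to all protein-coding genes. Whether their larger shares had to do with T-box partnership was not tested.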

How the data were processed

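ChIP-Seq of 2 Isl1 replicates and 1 input was grouped by sample title. Per the study's methods, the authors aligned reads to mm9 with bowtie2, removed duplicates with Picard 1.136, called peaks with MACS14 without a fragment model, removed blacklisted regions, kept areas common to both replicates with bedtools 2.15, and assigned each peak to the closest TSS with HOMER. The deposited list holds positions, distances and symbols. Peaks just under the cutoff in either replicate are missing from it. Of 14165 lines, 14082 were distinct. Whether starts count from 0 or 1 is not stated, so positions are uncertain by 1 bp. No peak ran past a chromosome end of the mm9 genome. Positions came from GENCODE vM1, and names from RefSeq on GRCm38, which matched 9305 of 9313 gene names. Words of 31 bases were counted on both strands (numpy 2.4.6, numba 0.67.0, samtools 1.23.1, checked on simulated data). Intervals are 95% Wilson intervals and cover counting error only. Members, lists, strings and measures were chosen with earlier results of these data known. The text names all 10 genes, 7 other T-box genes, genes of peaks within 100 kb, and listed partners with a peak within 10 kb. Some genes and 1 sequence that this selects are not reported here. Alternatives covered peak width, merging, copy number, distance and assignment.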

Additional observations from a re-analysis of the deposited data

How the results depend on the processing

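The number of T-box genes with a peak stayed at 5 when peaks had to be at least 500 bp wide, single-copy in the centre or (chosen after seeing the data) over the whole peak, within 10 kb, or assigned by the closest protein-coding TSS of the mm9 annotation. It was 4 with at least 2 peaks required and 8 when any peak within 100 kb of a TSS counted, since peaks assigned to neighbouring genes then enter. Assignment by the annotation gave 15 peaks in place of 13, with 2 distant ones added at Tbx3, and raised the share of all protein-coding genes with a peak from 37.5% to 40.3%. Of 41 alternative values for 16 results, 33 were classed as the same, 8 as moved and 0 as reversed. Part of these outcomes was fixed in advance, so the tally does not measure robustness. The narrowest of the 13 peaks was 740 bp wide, so the limit of 500 bp could remove none. A string absent from the central 200 bp is also absent from the central 100 bp inside it. No paired analysis was possible because 1 list combines both replicates and no test was run, and for the same reason neither replicate could be left out. Without scores or reads, a gene without a peak cannot be told from one whose signal was under the cutoff.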
